A study of Gallus gallus with 12 samples.

Results

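Chicken embryonic fibroblasts that had received a control vector were compared with fibroblasts of the same kind that had received a non-specific siRNA. Both are the controls of a study of Myoz3, and neither treatment was aimed at that gene. The members are the 3 Control libraries (control vector) and the 3 NC libraries (non-specific control siRNA), 6 of the 12 libraries of the series, chosen by their labels, with all 26102 genes of the count table. The other 6 libraries are 3 Over libraries, from cells given a Myoz3 overexpression vector, and 3 Inter libraries, from cells given a Myoz3 siRNA. These served to see whether a difference was also present between the other vector and siRNA libraries. All cells were primary fibroblasts of 9-day-old specific pathogen free embryos, transfected with the same lipid reagent, and RNA was extracted after 48 h. Each library came from 1 transfected sample, and the study's methods call the 3 samples of a group biological replicates. Because the reagent and any batch of culture, library preparation or sequencing differ together between Control and NC, their parts in the differences below cannot be told apart. The methods name a pair of read lengths without saying which libraries had which.

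Fibroblasts are the cells that make and maintain connective tissue, and primary cultures from chicken embryos are a mixed population dominated by them. A non-specific siRNA is a short double-stranded RNA without an intended target. It acts in the cytoplasm, where a strand of it is loaded into an Argonaute protein and guides it to matching mRNAs. A plasmid vector is a long circular DNA that must reach the nucleus to be transcribed, and the vector used here, a lentiviral backbone with a ZsGreen reporter, can make RNA and protein of its own even without an insert. Vertebrate cells have separate sensors for foreign DNA and for foreign double-stranded RNA in the cytoplasm. The table gives genes by Ensembl ID only, and 0 of the 26102 IDs could be paired with a symbol here, so the genes of these pathways, the fibroblast markers and Myoz3 itself were not looked up and the labels could not be checked by them.

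Total counts ranged from 21204899 to 23576681 in the Control libraries and from 13291600 to 15969800 in the NC libraries. The Over libraries held 18300623 to 19773117 counts and the Inter libraries 14261605 to 19804175. A count was present for 18245 to 18577 genes in the Control libraries, against 18489 to 18965 genes in the less deeply counted NC libraries. The 10 most counted genes took 10.1% to 10.8% of the counts in the Control libraries and 12.9% to 14.2% in the NC libraries. Inter 3 stood somewhat apart from its group. Its log2 CPM correlated at 0.986 and 0.988 with the other Inter libraries, against 0.988 to 0.992 with the NC libraries. The study judged the Myoz3 knockdown of that library insufficient by qRT-PCR and left a library out of its siRNA comparison, naming an NC library in the text. The knockdown could not be checked here. Both Inter 3 and NC 3 were kept, the calls and sizes of Over against Inter are also given without Inter 3, and the main counts of Control against NC also without NC 3.

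Most of the genes that could be tested differed between Control and NC. After removal of low counts, 14371 genes were tested with edgeR's quasi-likelihood test, and 9675 of them (67.3%) had a Benjamini-Hochberg adjusted p under 0.05, called here. Of these, 5085 (35.4%) were higher in Control and 4590 (31.9%) were lower. Without NC 3, 14878 genes were tested and 9160 of them were called, 5102 higher and 4058 lower. The near balance of the directions depended on the scaling of the libraries. When counts were scaled by library totals alone, 4341 genes were higher and 5991 lower, and with upper quartile scaling 4238 were higher and 6228 lower. The median log2 fold change of Control over NC over all tested genes was -0.01 with TMM scaling, -0.16 with totals alone and -0.19 with upper quartile scaling.

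The spread between replicates was small beside these differences. Between a Control and an NC library, the median gene differed by 0.49 on the log2 scale (0.44 to 0.54 over 9 pairs). Between 2 replicates of the same group, it differed by 0.14 (0.12 to 0.17 over 6 pairs). The Pearson correlation of log2 CPM (counts scaled to library size) across genes was 0.859 to 0.895 between Control and NC libraries, against 0.990 to 0.993 within either group. Across genes it is a description only, since genes are not independent replicates. The Control and NC values did not overlap for 10230 of the 14371 genes (71.2%). They did not overlap for 99.3% of the genes called higher in Control and for 92.0% of those called lower.

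The directions parted when the genes were ordered by the size of the change. Below 2-fold, 2312 called genes were higher in Control and 3620 were lower. Between 2-fold and 4-fold, 1341 were higher and 797 lower, and between 4-fold and 8-fold 667 were higher and 133 lower. Between 8-fold and 16-fold, 352 were higher and 34 lower, and at 16-fold or more 413 were higher (2.87% of those tested) and 6 lower (0.0418%). With TMM scaling, the share of genes higher in Control was therefore 39.0% among called changes under 2-fold and 98.6% among those of 16-fold or more. The share under 2-fold depends on the scaling, as the balance of all calls does, and is lower with totals alone or upper quartile scaling. In all, 2773 genes (19.3% of those tested) were called and at least 2-fold higher in Control, and 970 (6.75%) at least 2-fold lower. Without NC 3 these were 2821 and 965 of 14878 tested genes. At 4-fold, 1432 genes (9.96%) were higher and 173 (1.2%) lower, and at 8-fold 765 (5.32%) were higher and 40 (0.278%) lower. The excess of higher genes at 2-fold was also present with totals alone (2486 higher, 1341 lower) and with upper quartile scaling (2449 higher, 1404 lower). Against a fold change of 2 itself, tested with edgeR's glmTreat, 2167 genes were higher and 337 lower.

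The median log2 fold change was 2.05 for the genes at least 2-fold higher in Control and -1.34 for those at least 2-fold lower. Of all 14371 genes, 5% had a log2 fold change above 3.09, and 5% had one below -1.14. The long side of the distribution was thus the side higher in Control. Among the 413 genes at 16-fold or more, 40 had no count in any NC library, so their fitted fold change depends on the prior count. With these placed at the smallest fold that a floor of 3 counts over the NC group allows, 407 genes remained at 16-fold or more. The median log2 fold change of the 413 genes went from 5.26 to 5.11.

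**Figure D1:**
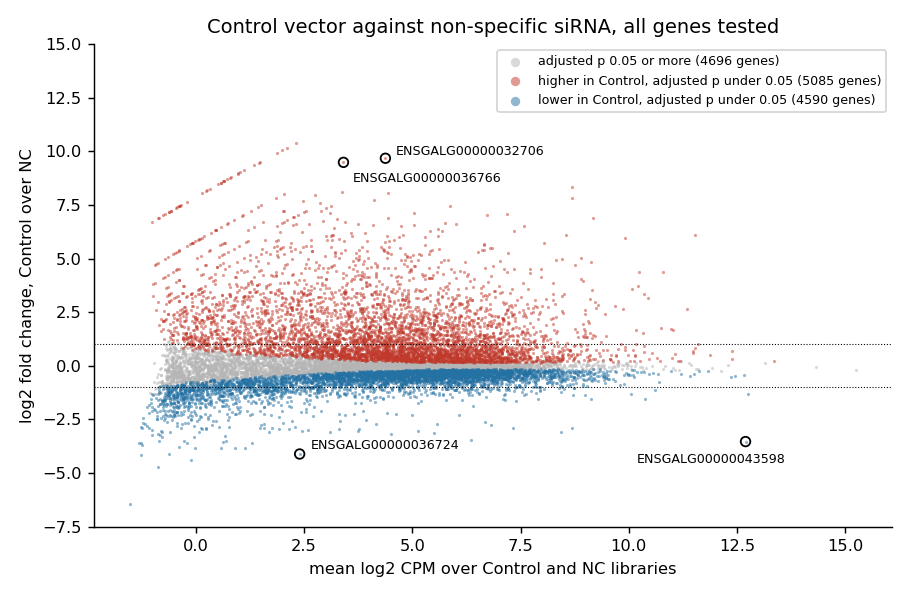
Log2 fold change of Control over NC for the 14371 genes tested, plotted against the mean log2 CPM of the 6 libraries, with 1 point per gene and dotted lines at a 2-fold change. The 5085 genes called higher in Control reach larger fold changes than the 4590 called lower. The 4 genes given by ID are circled, and the oblique lines of points at the left are genes with 0 or a few counts in NC.

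The genes that were much higher in Control were not only weakly expressed ones. The median gene at least 2-fold higher had 21.2 CPM in Control and 3.94 CPM in NC. Of the 2773, 1780 (64.2%) reached 10 CPM in at least 1 of the groups. That level was reached by 74.0% of all genes called higher, 69.9% of all called lower and 53.8% of those not called. The 64.2% therefore does not set the higher genes apart. The median gene at least 2-fold lower had 0.965 CPM in Control and 2.70 CPM in NC, and 240 of the 970 (24.7%) reached 10 CPM. Of the 2481 genes at or above 100 CPM in either group, 485 were at least 2-fold higher and 71 at least 2-fold lower. Over all 14371 tested genes these shares were 19.3% and 6.75%. Genes at least 2-fold lower in Control were thus mostly ones with few counts, and the NC libraries, in which they were higher, had the smaller totals.

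The genes were split by mean level into 10 equal groups, numbered from 1 for the lowest to 10 for the highest, and called genes were found in every group. The share called was 52.1% in level group 1, 77.2% in group 9 and 75.8% in group 10. The median size of the log2 fold change was 0.95 in group 1 and 0.37 in group 10, and the median standard error was 0.38 and 0.07. The smallest change that was called had a log2 size of 0.70 in group 1 and 0.15 in group 10, so that smaller estimates at low counts went without a call. In level group 1 alone, genes at least 2-fold lower (376, 26.2%) outnumbered those at least 2-fold higher (280, 19.5%). The low-count filter keeps a gene that has enough counts in only Control or only NC. Genes near that limit can thus be kept through the group where they are high, which favours large changes in level group 1. With a filter of more than 1 CPM in 3 libraries, 13343 genes were tested, 2555 at least 2-fold higher and 758 at least 2-fold lower. The 3 libraries of only Control or only NC also meet that filter, so it does not remove this selection. In group 3, 26.4% were at least 2-fold higher and 10.3% at least 2-fold lower, and in group 10 14.6% were at least 2-fold higher and 2.64% at least 2-fold lower. In groups 4 to 10, at most 4.04% of genes were at least 2-fold lower.

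**Figure D2:**
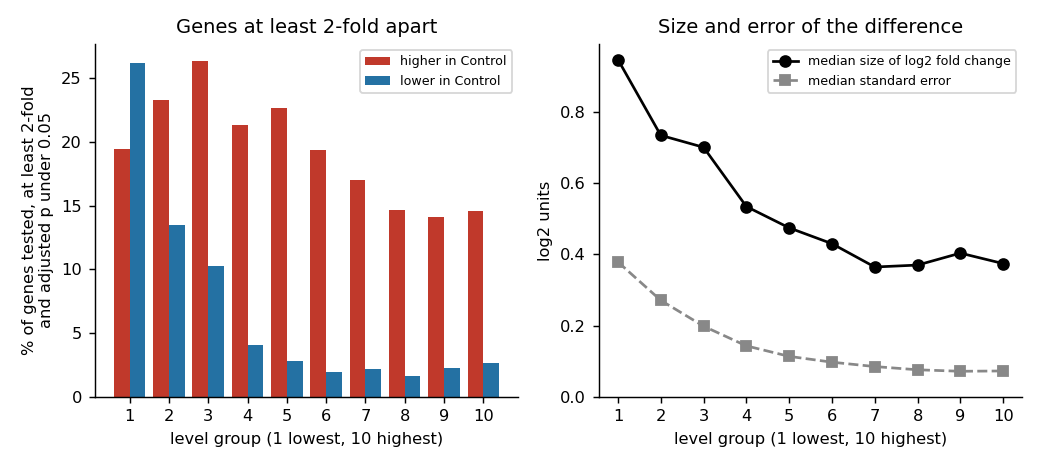
Left, the percentage of genes in each of 10 level groups that were called and at least 2-fold higher or lower in Control. Right, the median size of the log2 fold change and its median standard error in each group. In group 1 the lower genes are the more frequent (26.2% against 19.5% higher), and in every other group the higher genes are. Genes in group 1 could pass the low-count filter through only Control or only NC.

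At the top of the range, 119 genes reached 1000 CPM in either group. Of these, 57 were called higher in Control, 32 lower, and 30 were not called. At least 4-fold changes were found for 19 that were higher and 1 that was lower, and the log2 fold changes spanned -3.53 to 6.90. At 100 CPM or more, 1054 of 2481 genes were called higher, 914 lower, and 513 were not called. Of all 14371 genes tested, 35.4% were called higher and 31.9% lower. At 4-fold these shares over all genes were 9.96% and 1.2%. A gene entered either set through the group where it was higher, which favours genes that differ.

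The genes that were not called mostly had small estimates with small errors. Of these 4696 genes, 3416 had a log2 fold change within 0.25 of 0. For 4012 of them the estimate with 2 standard errors on either side lay within a 2-fold change. For 27 genes the estimate was 2-fold or more without a call.

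The share of each library's counts taken by these genes shows the difference without any fold change. The genes at least 2-fold higher in Control took 20.7%, 22.3% and 20.3% of the counts in Control 1 to 3, against 5.82%, 5.80% and 4.81% in NC 1 to 3. The genes at least 2-fold lower took 1.74%, 1.58% and 1.49% in Control and 5.52%, 5.23% and 5.73% in NC. The ranges lay far apart in both cases, as the choice of the genes by this contrast makes them. The Over and Inter libraries had no part in that choice. There, the genes at least 2-fold higher in Control took 18.2% ± 1.63 of the counts in Over and 5.19% ± 0.829 in Inter (SD, n = 3 each). The genes at least 2-fold lower took 1.82% ± 0.0642 in Over and 5.26% ± 0.202 in Inter (SD, n = 3 each). Inter 3 held the highest Inter share of the higher genes, 6.11%, beside 4.51% and 4.94% in Inter 1 and 2. The levels in Over lay nearer those in Control than those in NC, but between them in every Over library. For the higher genes Over held 17.0% to 20.1%, against 20.3% to 22.3% in Control. For the lower genes it held 1.77% to 1.89%, against 1.49% to 1.74%. The levels in Inter overlapped those in NC for both sets. The genes were chosen on Control and NC, and the shift in Over was not tested.

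**Figure D3:**
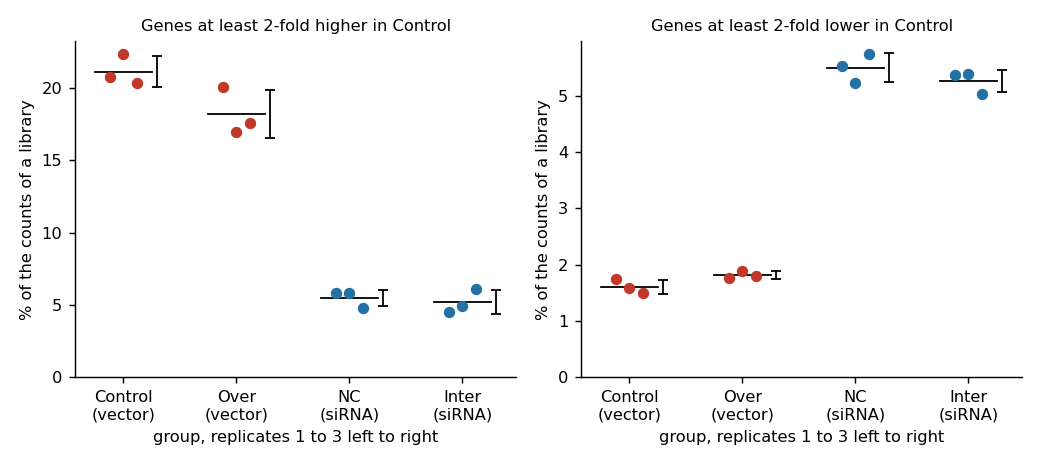
Percentage of the counts of each library that fell on the genes at least 2-fold higher in Control (left) and at least 2-fold lower (right), with 1 point per library, the group mean as a line and the SD as a bar beside it. The Control and NC libraries were used to choose the genes and the Over and Inter libraries were not. For the higher genes the Over libraries sit between 17.0% and 20.1%, all above the Inter libraries at 4.51% to 6.11%.

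A small group of genes had counts in every Control library and none in the NC libraries. Of all 26102 genes of the table, 46 had at least 10 counts in every Control library and 0 in all NC libraries. The reverse was found for 0 genes. This search did not use the low-count filter, so the 46 can include genes that were not tested. Their summed counts over the Control libraries ranged from 33 to 573, with a median of 117.5. Against a floor of 3 counts over the NC group, they were at least 8.61-fold to 149.5-fold higher in Control, with a median bound of 30.7. Since the NC libraries were the smaller ones, all libraries were also thinned to 13291600 counts, after which 33 genes and 0 genes met these conditions. In the other libraries, 34 of the 46 had at least 10 counts in every Over library. In Inter, 15 of the 46 were again at 0 in all libraries, 25 had 1 to 3 counts in total and 6 had more.

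Of the genes with at least 10 CPM in the group where they were higher, without overlap between groups, ENSGALG00000032706 had the largest log2 fold change. It had 47.2, 51.5 and 25.1 CPM in Control 1 to 3, against 0, 0 and 0.117 CPM in NC 1 to 3, where the last value was 2 counts. All Control libraries were above all NC libraries, and Control 3 was the lowest of its group. The log2 fold change was 9.67 with a standard error of 0.55 (edgeR adjusted p = 3.77e-08). The plain ratio of the scaled counts was 1005, with a 95% counting interval of 278 to 8303, which shows how little the 2 NC counts fix its size. The standard error was taken back from the test statistic and does not cover this. Without NC 3 no NC count is left and the fitted log2 fold change becomes 12.56, a value set by the prior count. It had 50.3, 37.3 and 33.4 CPM in Over, against 0.192, 0.0460 and 0.180 CPM in Inter, again without overlap. There the log2 fold change was 8.13 with a standard error of 0.31 (edgeR adjusted p = 2.45e-07).

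The next gene by this rule was ENSGALG00000036766. It had 19.5, 25.2 and 17.1 CPM in Control, against 0, 0 and 0.0587 CPM in NC, where only 1 read was counted in all. The log2 fold change was 9.48 with a standard error of 0.41 (edgeR adjusted p = 4.27e-09), and the plain ratio was 998, with a 95% counting interval of 179 to 39449. The fitted size rests on the single NC read, which the standard error, taken back from the test statistic, does not cover. The log2 fold change was 11.56 without NC 3, 11.01 after thinning to the smallest library and 8.75 with limma-voom. The vector and siRNA libraries of the other groups did not overlap either, with 23.7, 15.9 and 16.8 CPM in Over and 0.128, 0.138 and 0.180 CPM in Inter. The Over over Inter log2 fold change was 6.84 with a standard error of 0.29 (edgeR adjusted p = 4.67e-07).

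In the other direction, ENSGALG00000036724 had 0.669, 0.712 and 0.508 CPM in Control, against 10.8, 11.1 and 9.45 CPM in NC. Replicates lay close together in both groups, and the log2 fold change was -4.11 with a standard error of 0.20 (edgeR adjusted p = 8.87e-09). It had 0.422, 0.729 and 0.451 CPM in Over, against 8.53, 9.07 and 7.98 CPM in Inter, and the log2 fold change there was -4.04 ± 0.22 (SE; edgeR adjusted p = 1.50e-06). The Over values thus lay near the Control values. The Inter values all lay somewhat below the NC values, and far above those of both vector groups.

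ENSGALG00000043598 was one of the most abundant RNAs of the siRNA libraries. It had 963, 912 and 1420 CPM in Control, against 11847, 10043 and 14164 CPM in NC. By counts it ranked 3 among all genes in each NC library, where it took 1.08% to 1.51% of the counts, and 67 to 128 in the Control libraries, where it took 0.0815% to 0.132%. The log2 fold change was -3.53 with a standard error of 0.18 (edgeR adjusted p = 1.70e-08). It had 1152, 1044 and 835 CPM in Over, against 9678, 10414 and 9403 CPM in Inter, and the log2 fold change there was -3.36 ± 0.12 (SE; edgeR adjusted p = 1.62e-07). The order of the groups was the same with either pair of libraries.

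Across all genes, the differences between Control and NC were largely found again between Over and Inter. These comparisons share no library, but both set a vector against an siRNA, and Over and Inter also differ in what was done to Myoz3. Reagent and any batch can differ together in the same way in both comparisons, so their parts cannot be told apart here either. Over against Inter, 9144 of 14417 tested genes were called (63.4%), 4694 higher in Over (32.6%) and 4450 lower (30.9%). At least 2-fold changes were called for 17% of the genes as higher in Over and 7.55% as lower, and at least 4-fold changes for 8.5% and 1.68%. Without Inter 3, 9400 of 14757 genes were called, 5019 higher in Over and 4381 lower. Of the 9675 genes called in Control against NC, 9538 were also tested in Over against Inter. Of these 9538, 7906 (82.9%) were called there in the same direction, 1616 were not called and 16 were called in the opposite direction. None of the 16 was 2-fold apart in both comparisons (0 genes). Without Inter 3, 7939 of 9608 genes (82.6%) were called in the same direction and 29 in the opposite one, again with 0 genes 2-fold apart in both.

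The larger the difference between Control and NC, the more often it was also called between Over and Inter. Over all 14134 genes tested in both comparisons, 8851 (62.6%) were called between Over and Inter in the direction of Control over NC. Of the 4596 genes not called in Control against NC, 945 (20.6%) were. For called changes under 2-fold, 4496 of 5927 genes (75.9%) were called in the same direction. Of the genes at least 2-fold higher in Control, 2596 of 2706 (95.9%) were, and of those at least 2-fold lower 814 of 905 (89.9%). At 4-fold, 1375 of 1383 higher and 148 of 149 lower genes were called in the same direction, and at 8-fold 737 of 737 and 30 of 30. Without Inter 3, 4481 of 5931 genes under 2-fold (75.6%), 2635 of 2748 at least 2-fold higher (95.9%) and 823 of 929 at least 2-fold lower (88.6%) were called in the same direction. At 4-fold these were 1394 of 1413 higher and 153 of 156 lower genes, and at 8-fold 751 of 754 and 32 of 32. By level, the share called in the same direction was 73.9% in level group 1 and 86.4% in level group 10.

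The sizes of the differences were close in both pairs of groups. For the genes at least 2-fold higher in Control, the median log2 fold change was 2.03 for Control over NC and 1.84 for Over over Inter, and 75.6% of them had the smaller value in Over over Inter. For those at least 2-fold lower, the medians were -1.33 and -1.26. Since these genes were chosen by their size in Control over NC, the smaller values were not tested. Without Inter 3 the medians for the higher genes were 2.04 for Control over NC and 2.06 for Over over Inter. Of these genes, 47.9% had the smaller value in Over over Inter. For the lower genes the medians without Inter 3 were -1.33 and -1.28, still smaller in size in Over over Inter. These medians were not computed without Inter 1 or Inter 2. Over the 14134 genes tested in both, the Pearson correlation of the log2 fold changes was 0.959, given as a description. A direct test of the difference, (Over minus Inter) minus (Control minus NC), was fitted on all 12 libraries and 15013 genes. It called 0 genes (0%) by edgeR's quasi-likelihood test, while the likelihood ratio test called 142. By the quasi-likelihood test 1607 genes had an unadjusted p under 0.05, more than would fall there if no gene differed. The 0 calls thus do not show that the sizes were equal. Without Inter 3 the quasi-likelihood test called 49 genes.

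**Figure D4:**
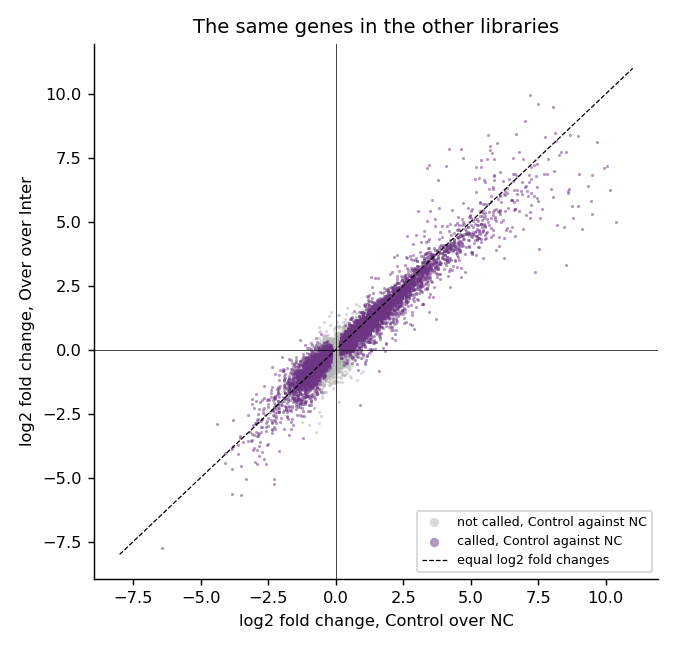
Log2 fold change of Over over Inter against that of Control over NC for the 14134 genes tested in both, with 1 point per gene and a dashed line where they are equal. Points lie along the line (Pearson correlation 0.959), and few of the called genes, in purple, lie in the quadrants of opposite sign.

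Library by library, the vector groups were close to each other and so were the siRNA groups. The median gene differed by 0.18 on the log2 scale between an Over and a Control library (0.11 to 0.23 over 9 pairs) and by 0.16 between an Inter and an NC library (0.12 to 0.20 over 9 pairs). It differed by 0.47 between an Over and an Inter library. All 6 vector libraries lay apart from all 6 siRNA libraries for 7978 of the 14371 genes (55.5%). Among these were 1418 of the 1432 genes at least 4-fold higher in Control and 169 of the 173 at least 4-fold lower. Part of this was set by choosing these genes on Control and NC, whose values did not overlap for 100% of either set.

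The genes with large differences were unevenly spread over the Ensembl ID numbers. IDs are given out in rising order as gene models are added, so that higher numbers belong to models that entered later releases of the chicken annotation. When the tested genes were split into 10 equal groups by ID number, 1.81% to 6.33% of the genes in ID groups 1 to 5 (numbers up to 16911) were called and at least 4-fold higher in Control. The share was 13.2% in ID group 6 and 16.7% to 19.0% in ID groups 7 to 10 (numbers from 29188 on). Those 4 groups, with 5749 of the 14371 genes, held 995 of the 1432 genes at least 4-fold higher (69.5%) and 592 of the 765 at least 8-fold higher (77.4%). Genes at least 4-fold lower were also more frequent there, at 1.74% to 2.16%, against 0.348% to 0.557% in ID groups 1 to 5.

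The same steps were present in the other libraries, where 1.54% to 5.40% of the genes in ID groups 1 to 5 and 14.7% to 16.2% in ID groups 7 to 10 were called and at least 4-fold higher in Over than in Inter. Genes with high ID numbers also had lower levels, with a median log2 CPM of 3.27 to 3.48 in ID groups 7 to 10, against 4.71 to 5.05 in ID groups 1 to 5. Among genes above the median level, 337 of 2212 (15.2%) in ID groups 7 to 10 and 122 of 4356 (2.80%) in ID groups 1 to 5 were at least 4-fold higher in Control. Among genes below it, these were 658 of 3537 (18.6%) and 126 of 2829 (4.45%). The difference between early and late IDs was therefore present on both sides of the median level. This split does not separate ID from level, since levels can differ within each side and the mean level includes the Control values. Genes with few counts could also pass the filter through Control alone. What kinds of gene the late IDs are was not looked up, and gene length, base composition and overlap with other genes were not tested.

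**Figure D5:**
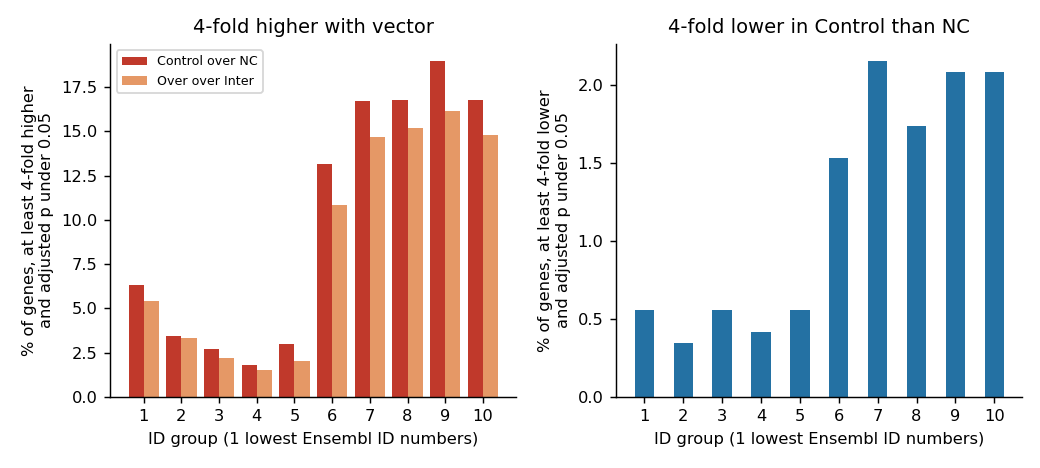
Left, the percentage of genes in each of 10 groups by Ensembl ID number that were called and at least 4-fold higher in Control than in NC, and in Over than in Inter. Right, the percentage called and at least 4-fold lower in Control than in NC. In both panels ID groups 7 to 10 stand above groups 1 to 5, with 16.7% to 19.0% against 1.81% to 6.33% for the genes higher in Control.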

How the data were processed

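Reads of low quality or with adapter sequence were discarded by the authors, who then aligned the read pairs to galGal5 using TopHat2 2.0.12 (Bowtie2 2.2.3 index) and ran HTSeq 0.6.1 to obtain a count per gene. The deposited table holds these raw counts, as whole numbers. Which annotation release, strand option and counting mode were used is not given in the sources used here. Genes that overlap, lie antisense or have near-identical copies may thus share or lose reads.

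R 4.3.3 with edgeR 4.0.16 was used. Genes were kept by filterByExpr (minimum count 10, minimum total 15). TMM factors scaled the libraries, and the 6 libraries of each comparison were fitted with glmQLFit and tested with glmQLFTest, with Benjamini-Hochberg adjustment at 0.05. Log2 fold changes are Control over NC or Over over Inter. Log2 CPM used a prior count of 2, and the CPM of single genes used TMM sizes over all 12 libraries. The fitted log2 fold changes used edgeR's own smaller default prior count instead. The biological coefficient of variation was 0.0873. Replicates differed by more than sampling noise (chi-square per degree of freedom 3.43 to 17.1, where repeated counts of 1 library give about 1), so none was treated as a duplicate. P-values measure the spread between transfected samples, and counting intervals and floors cover counting error only. Each standard error is the size of the log2 fold change divided by the square root of the F value of the test. It was thus taken back from the test, and can be too small where a group has few counts. The main test differs from the likelihood ratio test of the study's methods, which was run as an alternative. DESeq2 1.42.0 and limma 3.58.1 (voom), other scalings, filters and designs and each library left out in turn were also run, and thinning for genes at 0 was added after the data were seen. The scripts were tested on simulated data with at most 200 changed genes, in random directions. That setting does not cover changes as many or as one-sided as those found here.

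The comparison and its lists were chosen with earlier results of these data known. By rule, the named genes were the 2 in each direction whose log2 fold change was largest among called genes without overlap and with at least 10 CPM in the higher group. The reference table (25635 genes of a different assembly) has no Ensembl IDs, and gene lists, markers and sequences were therefore not analysed here.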

Additional observations from a re-analysis of the deposited data

How the results depend on the processing

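Across all alternatives the number of genes called between Control and NC ranged from 8861 without Control 1 to 10466 with upper quartile scaling. DESeq2 called 8911 genes, 8898 of them also called by the quasi-likelihood test, and limma-voom called 9670. Leaving out each Control or NC library in turn gave 8861 to 9459 called genes, of 14400 to 14929 tested. Of these, 2657 to 3006 were at least 2-fold higher and 965 to 1070 at least 2-fold lower in Control. With each of the 12 libraries left out in turn, 7191 to 7939 genes were called in the same direction in Over against Inter. Thinning all libraries to 13291600 counts gave 9163 called genes of 13779 tested. Testing against a 2-fold change called 337 genes lower in Control. The direct test of the difference called 142 genes by likelihood ratio and 0 to 49 when an Inter library was left out, with 49 without Inter 3. With no low-count filter the lowest of the 10 level groups held 0% called genes, because it then consisted of genes with almost no counts. No pairing by replicate number was seen between Control and NC: the deviations of same-numbered libraries correlated at -0.07, 0.06 and 0.13. With 3 libraries per group these values cannot exclude pairing, and Over and Inter were not examined in this way. With the replicate block 9673 genes were called and 7222 were called in the same direction in both comparisons. Over against Inter, the block gave 8019 called genes, against 9144 without it. The 4 named genes kept their direction and call in all 18 alternatives run for each. The size did not hold for ENSGALG00000032706 (9.13 to 12.56 on the log2 scale) and ENSGALG00000036766 (8.75 to 11.56), which had 2 and 1 NC counts, all in NC 3. In the lowest level group, the smallest change that was called had a log2 size of 0.70. The size that 3 libraries per group can detect was not computed.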
